A study of Homo sapiens with 6 samples.

Results

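Genes of xenobiotic metabolism and ATP-binding cassette (ABC) transport were followed in BE(2)-C cells, an established human neuroblastoma line with an amplified MYCN gene, after an siRNA against WDR5 or a control siRNA. The genes were chosen by name alone, as the names starting with CYP, ALDH, UGT, SULT or ABC, with GST of the classes A, M, O, P, T, Z or K, or with AKR1, leaving out CYP26 and antisense names. This gave 126 of the 16500 distinct names in the deposited files, of which 43 are ABC, 32 CYP, 18 ALDH, 12 GST, 8 UGT, 7 AKR1 and 6 SULT names. The H3K4me3 library of cells given WDR5 siRNA-1 and that of cells given control siRNA, both for 24 hours, were compared, and the IgG and input libraries of both were not used here. Each is 1 library of 1 cell line, so no value below has a replicate error, no p-value is given, and every comparison is between these libraries and not between conditions.

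H3K4me3 is the trimethylated form of lysine 4 of histone H3, a mark of active and poised promoters. WDR5 is a shared subunit of the methyltransferase complexes that place it, and N-Myc, the product of MYCN, is a transcription factor that binds E-box sequences. Xenobiotic metabolism is usually described as oxidation or reduction by cytochromes P450 (CYP), aldehyde dehydrogenases (ALDH) and aldo-keto reductases (AKR1), then conjugation by glucuronosyl- (UGT), glutathione- (GST) and sulfotransferases (SULT), then export by ABC transporters. Liver and gut carry out most of it. Many members of the same families work on the body's own steroids, fatty acids, retinoids and lipids, and several ABC proteins of neuroblastoma, among them ABCC1, have been studied for drug resistance.

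The measurement is a name in a list. A gene counts as listed in a library when the authors gave its name for that library in their list of genes with H3K4me3 peaks no more than 1 kb from the start of transcription (TSS). The WDR5 siRNA list had 11942 rows and the control siRNA list 13712 rows, and read depth and peak height are unknown. A missing name is therefore a missing call, not an absent mark, and a gene listed in both libraries may still differ in level. Of 9 adrenergic neuroblastoma markers, all with a promoter row, 7 were listed with WDR5 siRNA against 9 with control siRNA. Over all promoters the shares were 62.8% and 70.5%, so 9 markers are too few to show the line's origin. TH and DBH were the markers listed only with control siRNA. Of the 5 hepatocyte markers among the names 1 was listed, FOXA3, and it was listed in both libraries. None of the 3 intestinal, 4 adrenal cortex and 3 blood markers among the names was listed in either.

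Fewer of these genes, and fewer of all names, had a peak call after WDR5 siRNA. With WDR5 siRNA 57 of the 126 names were listed (45.2%, exact 95% interval over genes 36.4 to 54.3%), against 77 with control siRNA (61.1%, interval 52.0 to 69.7%). Over all names of the series the shares were 71.9% with WDR5 siRNA and 82.5% with control siRNA. Both libraries listed 56 of the names, and 48 were in neither list. ABCA8 was the 1 name listed only with WDR5 siRNA, 1 of 57, where 0.817% of all names with a WDR5 siRNA call were listed there only. The remaining 21 were listed only with control siRNA. They make 27.3% of the 77 names with a control call (interval 17.7 to 38.6%), beside 13.5% over all names of the series (1845 of 13618). The intervals treat genes as independent draws and cover no error of the libraries.

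A name with no promoter row can only enter the set through a peak list, so shares of listed genes are best read within the promoter tables. Among the 100 members with a promoter row, 40 were listed with WDR5 siRNA (40%, interval 30.3 to 50.3%), where 62.8% of all 9585 promoters were. With control siRNA 51 of the 100 were listed (51.0%, interval 40.8 to 61.1%), where 70.5% of all promoters were. Of those 51, 12 had no WDR5 siRNA call (23.5%, interval 12.8 to 37.5%), beside 785 of 6762 over all promoters (11.6%).

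**Figure D1:**
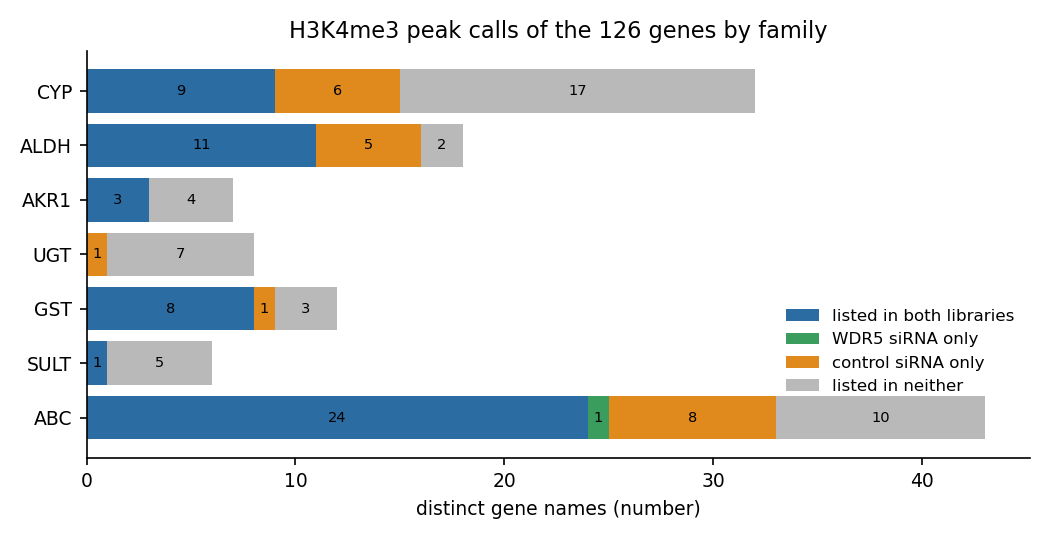
Number of distinct gene names per family (horizontal axis), divided by peak call: listed in both libraries, with WDR5 siRNA only, with control siRNA only, or in neither. UGT and SULT names are mostly unlisted (7 of 8 and 5 of 6), and ABC names mostly listed in both (24 of 43), as are all names (11773 of 16500). Names without a promoter row are in the set only because they were listed.

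The cytochromes P450 of the families 1 and 2, which include most drug- and carcinogen-oxidising enzymes, were 12 names, with 3 listed with WDR5 siRNA against 6 with control siRNA. Over all names the shares were 71.9% and 82.5%. Of the 28 CYP names of any family with a promoter row, 8 were listed with WDR5 siRNA (28.6%) against 11 with control siRNA (39.3%). Over all promoters the shares were 62.8% and 70.5%. Listed in both were CYP1A1, the oxidase of polycyclic hydrocarbons induced through the aryl hydrocarbon receptor, CYP2R1, a hydroxylase that begins vitamin D activation, and CYP2U1, a fatty acid hydroxylase. Listed only with control siRNA were CYP1B1 (hg19 chromosome 2, TSS 38303323), which oxidises oestrogens and polycyclic hydrocarbons, CYP2S1 (chromosome 19, TSS 41699115), and CYP2J2, an epoxygenase of arachidonic acid with no promoter row. The unlisted names included CYP1A2, CYP2B6, CYP2C8, CYP2E1 and CYP2F1, most of them known as liver enzymes. All CYP1 and CYP2 promoters with a row were in the non-binding table, which holds 6331 of all 9585 promoters.

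Steroid, sterol and vitamin D cytochromes P450 showed the same counts, 3 of 13 listed with WDR5 siRNA against 6 of 13 with control siRNA. Over all names the shares were 71.9% and 82.5%. CYP51A1, the lanosterol demethylase of cholesterol synthesis, CYP39A1, an oxysterol hydroxylase of bile acid synthesis, and CYP7B1, which also hydroxylates oxysterols, were listed in both. Those listed only with control siRNA were CYP27A1 (chromosome 2, TSS 219646472), which hydroxylates the cholesterol side chain, CYP27B1, which makes active vitamin D, and CYP46A1, the enzyme by which neurons turn over cholesterol. CYP27B1 stood on 2 rows of the control list and on none of the WDR5 siRNA list. CYP27B1 and CYP46A1 have no promoter row and are in the set only because they were listed, which widens the gap between the 2 counts. The steroid hormone enzymes CYP11A1, CYP11B1, CYP11B2 and CYP19A1, the bile acid enzymes CYP7A1 and CYP8B1, and CYP24A1, which degrades vitamin D, were in neither list. Of 5 CYP4 names, CYP4V2 was listed in both and CYP4B1, CYP4F2, CYP4F8 and CYP4X1 in neither. CYP20A1 and CYP27C1, the latter with no promoter row, were listed in both.

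Aldehyde dehydrogenases were listed for 11 of 18 names with WDR5 siRNA against 16 of 18 with control siRNA, and for 6 against 10 of the 12 with a promoter row. Those with a row make 50% and 83.3%, where 62.8% and 70.5% of all promoters were listed. Of 10 ALDHs of amino acid, folate and mitochondrial aldehyde metabolism, 9 were listed in both. These were ALDH2, ALDH1B1, ALDH1L2, ALDH4A1, ALDH5A1, ALDH6A1, ALDH7A1, ALDH9A1 and ALDH18A1. ALDH2, ALDH1B1, ALDH1L2, ALDH4A1 and ALDH9A1 have no promoter row and are in the set only because they were listed. The share listed only with control siRNA was 10% (interval 0.253 to 44.5%), near the 13.5% of all names with a control call. The exception was ALDH1L1 (chromosome 3, TSS 125900029), the cytosolic formyltetrahydrofolate dehydrogenase. Of the ALDH3 and ALDH16 names, ALDH3A2, the fatty aldehyde dehydrogenase, was listed in both. ALDH3A1, ALDH3B1 (chromosome 11, TSS 67777790) and ALDH16A1 (chromosome 19, TSS 49956473) were listed only with control siRNA, 3 of 4 (interval 19.4 to 99.4%). The retinoic acid-forming enzymes had a different call each: ALDH1A3 was in both lists, ALDH1A2 (chromosome 15, TSS 58358121) only in the control list, and ALDH1A1 in neither. ALDH8A1 was also in neither.

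Among the aldo-keto reductases, AKR1A1, AKR1B1, the aldose reductase, and AKR1E2 were listed in both, and AKR1B10, AKR1C3, AKR1C4 and AKR1D1, which act on retinals and steroids, in neither. None of the 3 with a control call lacked a WDR5 siRNA call (interval 0 to 70.8%), where 13.5% of all such names did.

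Glutathione transferases were listed for 8 of 12 names with WDR5 siRNA against 9 of 12 with control siRNA. Of these 12, 6 have no promoter row and so are in the set only because they were listed. Of the 6 with a row 3 were listed in both libraries and 3 in neither. Over all promoters 62.8% were listed with WDR5 siRNA and 70.5% with control siRNA. GSTA4, GSTK1, GSTM3, GSTM4, GSTO1, GSTO2, GSTP1 and GSTZ1 were in both lists, GSTT1 only in the control list, and GSTA3, GSTM1 and GSTM5 in neither. The GSTM genes are close copies of each other, and the sources used here do not say how reads shared by copies were placed, so their separate calls are uncertain. Of the 8 UGT names, all with a promoter row, none was listed with WDR5 siRNA, against 1 with control siRNA. That one was UGT8 (chromosome 4, TSS 115519611), which makes galactosylceramide, a lipid of myelin, and does not act in glucuronidation. The others, UGT1A4, UGT2A1, UGT2A3, UGT2B7, UGT2B10, UGT2B17 and UGT3A1, were in neither list. SULT4A1, a sulfotransferase known from brain, was listed in both, and SULT1B1, SULT1C2, SULT1C3, SULT1E1 and SULT2B1 in neither.

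ABC transporters were listed for 25 of 43 names with WDR5 siRNA against 32 of 43 with control siRNA, and for 20 against 23 of the 34 with a promoter row. Those with a row make 58.8% and 67.6%, near the 62.8% and 70.5% of all promoters. Of the 32, 8 were listed only with control siRNA (25.0%, interval 11.5 to 43.4%). The enzymes of the other families gave 13 of 45 (28.9%, interval 16.4 to 44.3%), and these intervals overlap. The drug efflux names counted 4 of 9 with WDR5 siRNA against 7 of 9 with control siRNA, where 71.9% and 82.5% of all names were listed. ABCC1 (chromosome 16, TSS 16043434), ABCC4 (chromosome 13, TSS 95953687), ABCC5 and ABCC10, all organic anion or drug exporters, were in both lists. ABCC3 (chromosome 17, TSS 48712218), which exports bile acids and glucuronides, ABCG2, the breast cancer resistance protein, and ABCC6, the gene mutated in pseudoxanthoma elasticum, were listed only with control siRNA. ABCG2 and ABCC6 have no promoter row and are in the set only because they were listed, which widens the gap between the counts of the drug efflux names. ABCB1, which encodes P-glycoprotein, and ABCC12 were in neither list. The pseudogene ABCC6P1 had the same call as ABCC6, of which it is a near-identical copy, so reads from one may have been counted for the other.

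Lipid-transporting ABC names were 16, with 7 listed with WDR5 siRNA against 8 with control siRNA. Over all names the shares were 71.9% and 82.5%. ABCA2, ABCA3, ABCA5, ABCB4, ABCG1 and ABCG4 were listed in both, and ABCG4, with no promoter row, is in the set only because it was listed. ABCA1 (chromosome 9, TSS 107690527), which exports cholesterol to apolipoprotein A-I, and ABCA7 (chromosome 19, TSS 1040102) were listed only with control siRNA, and ABCA8 (chromosome 17, TSS 66951533) only with WDR5 siRNA. ABCA4, ABCA6, ABCA9, ABCA13, ABCB11, ABCG5 and ABCG8 were in neither list, the last 3 being exporters of bile salts and plant sterols. Of the sulfonylurea receptors, ABCC8 (chromosome 11, TSS 17498449), a subunit of ATP-sensitive potassium channels, was listed only with control siRNA and ABCC9 in neither.

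Most ABC proteins of organelles and of translation were in both lists, as were 11773 of all 16500 names. The peroxisomal members ABCD2, ABCD3 and ABCD4 and the 4 members without a transport domain (ABCE1, ABCF1, ABCF2, ABCF3), which act in translation and ribosome recycling, were listed in both. Among the mitochondrial members, ABCB8 and ABCB10 were listed in both and ABCB6, a porphyrin transporter, only with control siRNA. ABCB6 and ABCB8 have no promoter row and are in the set only because they were listed. ABCB9, ABCA11P and ABCA17P completed the names listed in both.

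N-Myc binding, as the authors' promoter tables give it, was recorded for 24 of the 100 member promoters (24.0%, interval 16 to 33.6%), beside 33.9% of all promoters. Of these 24, 13 were ABC promoters (ABCA1, ABCA3, ABCB4, ABCB10, ABCC1, ABCC4, ABCC10, ABCD3, ABCE1, ABCF1, ABCF2, ABCF3 and ABCG1). The enzymes in the table were ALDH1A2, ALDH3A2, ALDH6A1, ALDH7A1, ALDH16A1, ALDH18A1, CYP20A1, CYP39A1, CYP51A1, GSTO1 and UGT8. With WDR5 siRNA 20 of the 24 were listed, where 91.0% of all N-Myc-binding promoters were, and with control siRNA all 24, where 94.9% of all were. The 4 listed only with control siRNA were ABCA1, ALDH1A2, ALDH16A1 and UGT8 (16.7%, interval 4.74 to 37.4%), beside 4.18% of all N-Myc-binding promoters with a control call. Of the 76 non-binding member promoters, 20 were listed with WDR5 siRNA (26.3%, where 48.2% of all non-binding promoters were) against 27 with control siRNA (35.5%, where 58.0% of all were). Only control siRNA listed 8 of the 27 (29.6%, interval 13.8 to 50.2%), beside 17.9% of all non-binding promoters with a control call. Members with no promoter row gave 9 of 26 (34.6%, interval 17.2 to 55.7%), beside 15.5% of all such names.

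**Figure D2:**
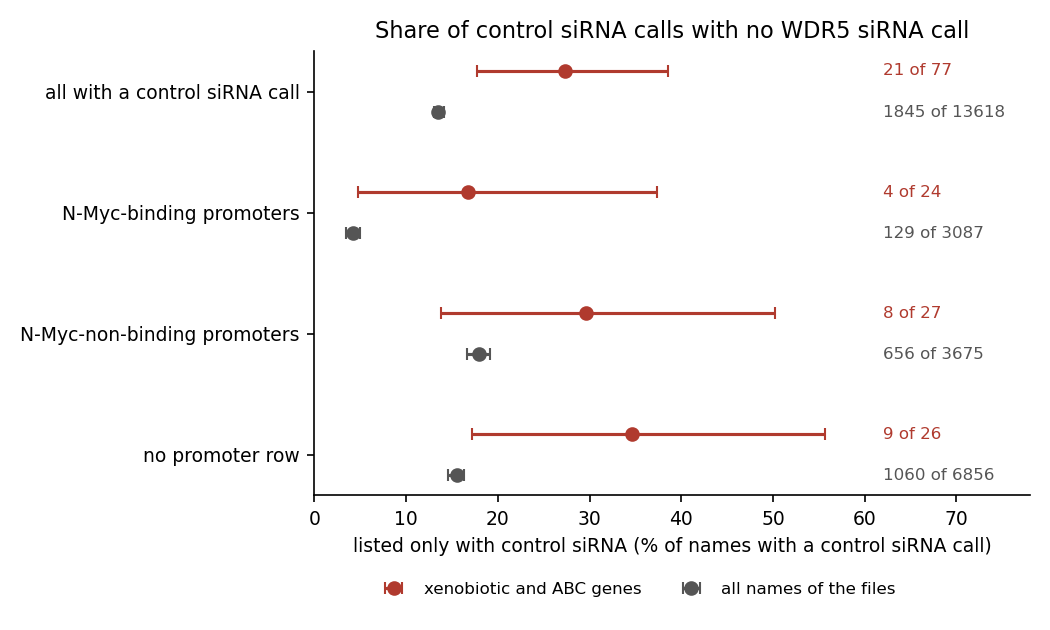
Share of names with a control siRNA call that had no WDR5 siRNA call (horizontal axis, %), for the xenobiotic and ABC genes (red) and for all names of the files (grey), in all and by promoter class. Points are shares and bars exact 95% intervals over genes; the points of the xenobiotic and ABC genes lie higher in each class (27.3% against 13.5% in all), but the interval of the non-binding class (13.8 to 50.2%) holds the 17.9% of all such promoters.

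RefSeq promoter sequences, from 250 bases before to 50 after the annotated start, were at hand for 20 of the 24 N-Myc-binding members. The canonical E-box CACGTG, which reads the same on both strands, occurred in 4 of the 20 windows, beside 15% of 2713 windows of N-Myc-binding promoters and 7.43% of all 27305 RefSeq genes with a window. The sequences are in the GRCh38.p14 build and were matched by gene symbol, so the start they use may differ from the TSS of the hg19 tables. Only the first window of a gene was read, and 25 of the 95 members with a window have several. These 4 promoters are shown because they hold the E-box (in capitals) and fall on both sides of the comparison: ABCF1 and ALDH18A1 were listed in both libraries, ABCA1 and UGT8 only with control siRNA.
ABCF1 (GRCh38.p14, chr6:30571192-30571491, plus strand): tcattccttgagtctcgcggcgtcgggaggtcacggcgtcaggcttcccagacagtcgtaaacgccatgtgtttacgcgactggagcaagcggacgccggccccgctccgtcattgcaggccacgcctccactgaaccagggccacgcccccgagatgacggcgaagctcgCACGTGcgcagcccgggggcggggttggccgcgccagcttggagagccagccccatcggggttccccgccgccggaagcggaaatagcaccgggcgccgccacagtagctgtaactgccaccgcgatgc
ALDH18A1 (GRCh38.p14, chr10:95656662-95656961, minus strand): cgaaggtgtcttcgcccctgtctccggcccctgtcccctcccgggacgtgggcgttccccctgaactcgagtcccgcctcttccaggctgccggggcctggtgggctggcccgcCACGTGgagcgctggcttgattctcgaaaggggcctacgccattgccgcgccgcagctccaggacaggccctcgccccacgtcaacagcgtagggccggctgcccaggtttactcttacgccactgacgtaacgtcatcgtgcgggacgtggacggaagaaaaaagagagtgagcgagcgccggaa
ABCA1 (GRCh38.p14, chr9:104928106-104928405, minus strand): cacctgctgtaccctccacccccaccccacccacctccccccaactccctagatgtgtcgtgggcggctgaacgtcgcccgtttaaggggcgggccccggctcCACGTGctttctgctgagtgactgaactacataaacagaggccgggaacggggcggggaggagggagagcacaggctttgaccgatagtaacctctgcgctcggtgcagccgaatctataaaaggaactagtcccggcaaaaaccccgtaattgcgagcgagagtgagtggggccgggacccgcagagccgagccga
UGT8 (GRCh38.p14, chr4:114598152-114598451, plus strand): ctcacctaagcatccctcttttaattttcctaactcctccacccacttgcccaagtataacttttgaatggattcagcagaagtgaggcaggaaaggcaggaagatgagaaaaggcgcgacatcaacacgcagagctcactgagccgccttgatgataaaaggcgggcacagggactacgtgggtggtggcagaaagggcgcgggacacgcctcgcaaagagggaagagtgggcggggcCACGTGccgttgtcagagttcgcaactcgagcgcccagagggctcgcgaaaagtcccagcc
The E-box begins 79 bases before the annotated start in ABCF1, 136 bases before it in ALDH18A1, 147 bases before it in ABCA1 and 11 bases before it in UGT8. By call, 2 of the 3 N-Myc-binding members with a window that were listed only with control siRNA held the E-box, against 2 of 17 listed in both. ALDH1A2 is the one of the 3 without it in the window read, the first of 2, and ALDH16A1 has no window. Over all N-Myc-binding promoters with a window the counts were 14 of 103 listed only with control siRNA (13.6%) and 375 of 2480 listed in both (15.1%). With 3 genes no difference between the member classes can be read, and a match is a description of the window, not a site of binding.

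Member promoters within 500 kb of the next one, a distance chosen after the calls were seen, formed 18 groups with 45 promoters. Of these 45, 12 were listed with WDR5 siRNA and 12 with control siRNA, and 32 were in neither list. Of the 55 member promoters that stood alone, 28 were listed with WDR5 siRNA against 39 with control siRNA, and 16 were in neither list. In 8 of the 18 groups no promoter was listed, in 2 every promoter was listed in both, and 8 were mixed. Some groups hold unrelated genes, such as ABCA4 with ABCD3, and no like count over all promoters was made.

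The UGT2 and SULT1 genes on chromosome 4 were unlisted throughout. UGT2B17, UGT2B10, UGT2A3 and UGT2B7 span 528 kb, and UGT2A1, SULT1B1 and SULT1E1 a further 207 kb beyond a gap of over 500 kb, with no call in either library. The divergent pair ABCG5 and ABCG8, 145 bp apart, had none either. On chromosome 17 the ABCA genes gave 3 different calls within 372 kb: ABCA8 was listed only with WDR5 siRNA, ABCA9 and ABCA6 in neither, and ABCA5 in both. CYP2S1 was the 1 promoter of these groups listed only with control siRNA, and its neighbours CYP2B6 and CYP2F1 were in neither list. AKR1E2 was listed in both beside unlisted AKR1C3 and AKR1C4, AKR1B1 beside unlisted AKR1B10, and ABCB4, an exporter of phosphatidylcholine, beside unlisted ABCB1.

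**Figure D3:**
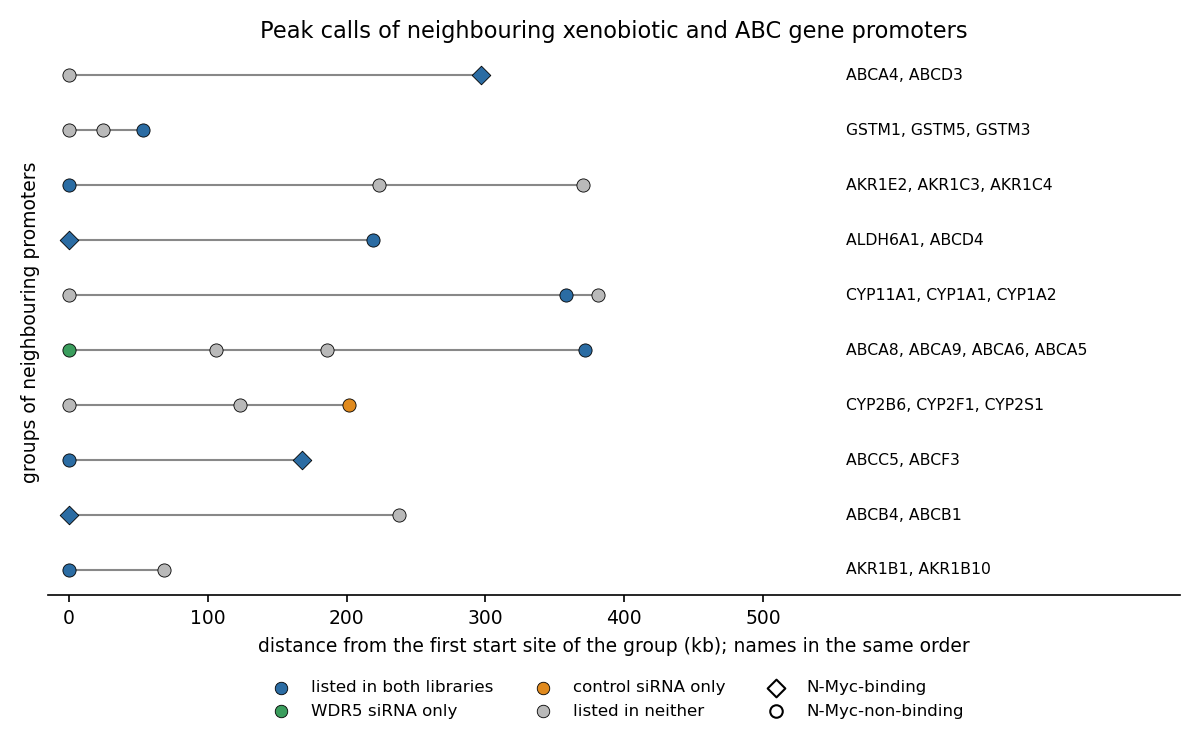
Each line is 1 of the 10 groups with a call, of promoters of these genes within 500 kb of the next (horizontal axis, distance in kb from the first TSS in the group), coloured by peak call, with diamonds for N-Myc-binding promoters. Of the 26 promoters drawn 13 are in neither list (grey), and in groups such as CYP11A1, CYP1A1 and CYP1A2 a single promoter has a call.

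CG dinucleotides are common in many promoters that carry H3K4me3, and the sequences of some neighbours with different calls are shown with each CG in capitals. Over the 126 genes as a set this comparison is void, because RefSeq windows were at hand for 95 of them (75.4%, under the 80% set as the minimum) and for 12 of the 21 listed only with control siRNA. The following were picked after the calls were seen, to show a promoter listed in both (ABCC4), an unlisted one (UGT2B7) and pairs with different calls. The pairs are CYP1A1 with CYP1A2, and GSTM3 with GSTM1, between which the unlisted GSTM5 lies.
ABCC4 (GRCh38.p14, chr13:95301402-95301701, minus strand): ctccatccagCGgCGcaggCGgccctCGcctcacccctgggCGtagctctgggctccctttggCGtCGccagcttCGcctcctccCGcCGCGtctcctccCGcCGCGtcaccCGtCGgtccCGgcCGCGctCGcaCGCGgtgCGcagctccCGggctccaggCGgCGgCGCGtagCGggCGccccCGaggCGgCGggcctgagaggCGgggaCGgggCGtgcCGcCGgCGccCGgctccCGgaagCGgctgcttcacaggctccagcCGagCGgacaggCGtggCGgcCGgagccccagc
CYP1A1 (GRCh38.p14, chr15:74725479-74725778, minus strand): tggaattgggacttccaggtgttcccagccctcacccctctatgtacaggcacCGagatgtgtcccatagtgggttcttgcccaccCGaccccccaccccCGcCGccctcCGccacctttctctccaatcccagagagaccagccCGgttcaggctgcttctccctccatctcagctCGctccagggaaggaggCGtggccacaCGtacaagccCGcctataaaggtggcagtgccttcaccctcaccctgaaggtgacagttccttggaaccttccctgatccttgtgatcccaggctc
CYP1A2 (GRCh38.p14, chr15:74748595-74748894, plus strand): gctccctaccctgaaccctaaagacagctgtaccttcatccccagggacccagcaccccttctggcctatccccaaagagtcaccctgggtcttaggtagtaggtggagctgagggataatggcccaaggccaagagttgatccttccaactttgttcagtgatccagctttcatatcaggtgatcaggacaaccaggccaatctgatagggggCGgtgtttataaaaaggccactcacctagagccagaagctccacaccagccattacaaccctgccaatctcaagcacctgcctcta
GSTM3 (GRCh38.p14, chr1:109740989-109741288, minus strand): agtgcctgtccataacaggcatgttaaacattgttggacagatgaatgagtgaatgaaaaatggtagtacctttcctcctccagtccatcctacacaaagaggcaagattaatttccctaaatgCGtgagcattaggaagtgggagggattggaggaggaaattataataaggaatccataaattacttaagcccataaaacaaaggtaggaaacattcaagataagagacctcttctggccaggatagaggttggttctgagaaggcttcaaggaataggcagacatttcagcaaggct
GSTM1 (GRCh38.p14, chr1:109687567-109687866, plus strand): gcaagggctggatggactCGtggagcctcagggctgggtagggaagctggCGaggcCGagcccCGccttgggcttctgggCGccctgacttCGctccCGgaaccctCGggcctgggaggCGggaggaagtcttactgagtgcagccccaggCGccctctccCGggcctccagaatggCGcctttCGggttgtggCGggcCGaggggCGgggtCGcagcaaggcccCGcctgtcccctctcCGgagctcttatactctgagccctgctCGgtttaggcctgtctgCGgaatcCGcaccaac
UGT2B7 (GRCh38.p14, chr4:69096224-69096523, plus strand): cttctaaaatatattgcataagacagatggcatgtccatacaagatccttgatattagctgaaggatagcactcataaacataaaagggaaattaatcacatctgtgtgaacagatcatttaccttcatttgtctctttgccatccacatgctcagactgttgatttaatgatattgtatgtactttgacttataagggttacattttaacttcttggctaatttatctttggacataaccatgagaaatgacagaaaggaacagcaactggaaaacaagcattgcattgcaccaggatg
The ABCC4 window holds 47 CG dinucleotides in 300 bases and the UGT2B7 window 0. CYP1A1, listed in both, holds 10, and CYP1A2, whose TSS lies 23307 bp away in the hg19 table and which is in neither list, holds 1. GSTM3, listed in both, holds 1, and GSTM1, in neither list, holds 22, though the calls of these close copies are uncertain. As the pairs were picked after the calls were seen, nothing on CG content and calls can be read from them.

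Rows of the promoter tables stand in an order that the headers do not explain. Calls followed it over all promoters and over the members. Members listed in both had a later median position than all promoters with that call, in each table. In the non-binding table the median position of members was 30.5% of the length for those listed in both, 48.6% for those listed only with control siRNA and 78.6% for the unlisted, beside 23.9%, 51.5% and 78.4% over all promoters with those calls. In the non-binding table, of 6331 rows, the 8 members listed only with control siRNA held rows 2937 (CYP27A1) to 3720 (CYP2S1). Of the 19 members listed in both, 17 (89.5%) stood before row 2937, and the exceptions were ALDH1A3 at row 2958 and ABCD2 at row 6243; over all promoters listed in both 92.1% stood before row 2937. Of the 48 unlisted members, 46 (95.8%) stood after row 3720, and the exceptions were ABCG5 at row 3658 and ABCG8 at row 3680; over all unlisted promoters 95.4% stood after row 3720. ABCA8, the gene listed only with WDR5 siRNA, held row 6271. All promoters of the table between rows 2937 and 3720 numbered 784, of which 455 were listed only with control siRNA, 209 in both, 117 in neither and 3 only with WDR5 siRNA. This stretch was set by the members' own calls, so its make-up is a description.

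In the N-Myc-binding table, of 3254 rows, the 4 members listed only with control siRNA held rows 2743 (ALDH16A1), 2904 (ALDH1A2), 2915 (ABCA1) and 2965 (UGT8). The 20 listed in both ran from row 220 (CYP51A1) to row 2992 (ABCB4), with a median 57.7% of the way down the table, where the median of all N-Myc-binding promoters listed in both was 45.6%. ABCB4 and ALDH6A1 (row 2830) were the members listed in both that stood beyond row 2743.

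**Figure D4:**
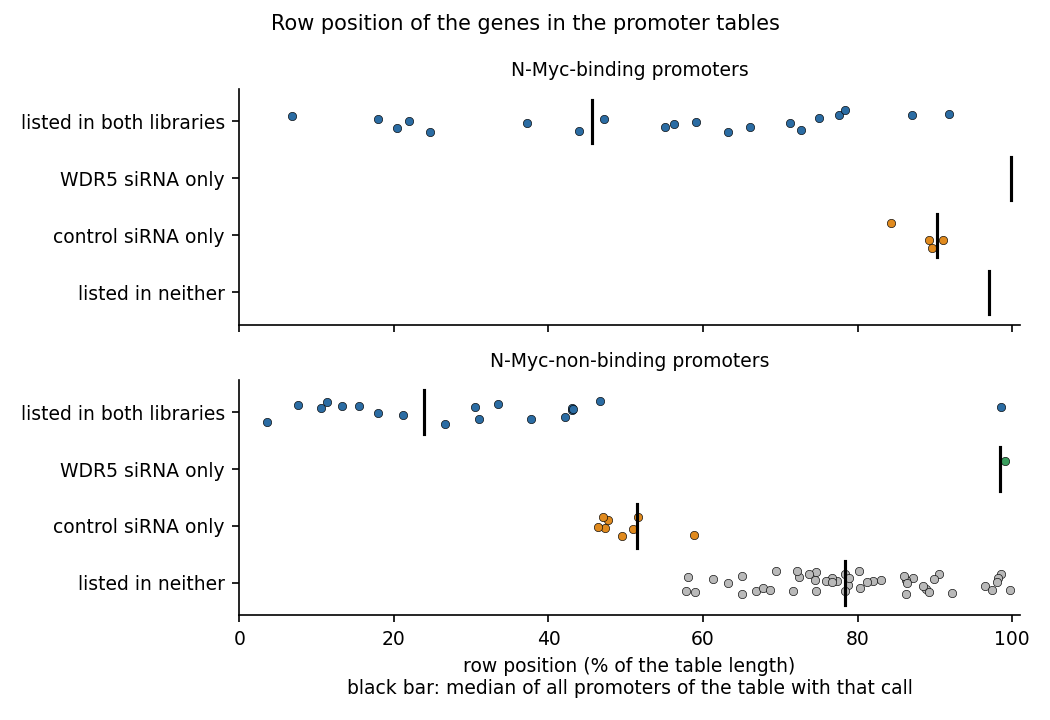
Row position of the 100 genes with a promoter row (horizontal axis, % of the table length), by peak call, for N-Myc-binding promoters above and non-binding promoters below. Points are genes and black bars the median of all promoters with that call; in the non-binding table the 8 genes listed only with control siRNA lie between 46.4% and 58.8%.

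Neighbours in the control list are neighbours in the genome: of 6761 successive names with promoter rows on 1 chromosome, 6757 stood in ascending position. Of the 21 genes listed only with control siRNA, 9 stood next to another name listed only with control siRNA (42.9%, interval 21.8 to 66.0%), beside 37.6% of all 1845 such names. For the 56 listed in both the number was 13 (23.2%), beside 22.8% of all names listed in both. ABCA7 stood between CNN2 and HMHA1, and CYP2S1 beside AXL, all listed only with control siRNA. ABCB6, ABCC6, CYP27A1 and CYP46A1 stood between names listed in both.

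Other genes of the pathway were taken from lists of 100 regulators, redox partners, enzymes and uptake carriers, of which 91 were names in the files. Of these 91, 47 were listed with WDR5 siRNA against 55 with control siRNA, and 36 were in neither list. Over all names the shares listed were higher, 71.9% with WDR5 siRNA and 82.5% with control siRNA. Only control siRNA listed 8 of the 55 (14.5%), near the 13.5% of all names. AHR (chromosome 7, TSS 17338276), the aryl hydrocarbon receptor that induces CYP1A1 and CYP1B1, was 1 of 7 control-listed receptors and partners, and the others, among them ARNT and RXRA, were in both lists. Of 14 listed genes of the response to NRF2, the regulator of antioxidant and conjugating enzymes, HMOX1 (chromosome 22, TSS 35777060), NQO1 and MAFK were listed only with control siRNA and 11, among them NFE2L2 and KEAP1, in both. Of 9 redox partners of the cytochromes P450, 7 were names in the files, and all 7 were listed in both, as were 11773 of all 16500 names. POR, CYB5A, FDXR and FDX1L have no promoter row and count among the 7 only because they were listed. EPHX2 and CES3 among 12 other oxidation and hydrolysis enzymes, MGST2 among 10 other conjugation enzymes and SLC47A1 among 5 uptake and exchange carriers were listed only with control siRNA. The xenobiotic receptors NR1I2 (PXR) and NR1I3 (CAR) and the bile acid receptor NR1H4 were in neither list.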

How the data were processed

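ChIP-seq for H3K4me3 was done in BE(2)-C cells with 1 library per siRNA. BWA 0.7.12, bedtools and the hg19 build are named, without their roles, per the submitters' processing notes. The sources used here do not give the peak caller, its threshold, its control library or how N-Myc binding was decided. The 3 deposited tables hold names and positions and no measured value, so depth is unknown and the planned use of levels was dropped. The peak list has a column of names per H3K4me3 library, and each promoter table has a 1 bp interval and a gene name, per the file headers. The end of the interval was taken as the TSS.

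Names were made distinct and joined by exact name, so a peak at another TSS of a gene counts for its row. Each member matched a RefSeq symbol or synonym. Intervals are exact (Clopper-Pearson) at 95% over genes. The background is the same count over all names. Named genes are every member listed in 1 library only, every N-Myc-binding member, and the other members by family; some members are not reported here by name. Members and lists were chosen with earlier results of these data known. The lists of roles came from general knowledge. Scripts were tested on simulated data. Computation used Python 3.11.15, pandas 2.3.3 and scipy 1.17.1.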

Additional observations from a re-analysis of the deposited data

How the results depend on the processing

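Of 25 alternative values 21 stayed within the interval of the value reported. The share of control-listed members without a WDR5 siRNA call (27.3%) ran from 23.5 to 28.9% when pseudogene names, repeated names, names without a promoter row, neighbours within 100 kb or either the ABC or the enzyme families were left out. With all 126 members as the denominator it was 16.7%, since unlisted members then enter it. Counting the ABC transporters alone gave 58.1% listed with WDR5 siRNA and 74.4% with control siRNA. Counting members with a promoter row alone gave 51.0% listed with control siRNA, since members without a row are all listed there. The N-Myc-binding share was 24.0 to 26.7%. All members matched RefSeq, so that alternative changed nothing. Alternatives on levels and on the promoter window were not run, because the tables hold no levels and the sequence comparison over the set is void. No paired analysis was possible because each siRNA has 1 library, and no replicate could be left out. With depth unknown, a missing call may be a peak under the threshold, and this could not be measured.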
